A study of Mus musculus with 5 samples.

Results

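Described here are 10 heat shock and endoplasmic reticulum (ER) chaperone genes in haematopoietic stem cells (HSCs): Hspa8, Hspa5, Hspa9, Hsp90aa1, Hsp90ab1, Hsp90b1, Hspd1, Hspe1, Hsph1 and Dnajb1. They were chosen by name, and all 10 were present among the 11643 genes of the expression table. Expression was measured by RNA-seq in bulk, in 3 control libraries and 2 libraries labelled Tle1/3/4-deficient, from C57BL/6 mice. The deficient mice carried floxed alleles of Tle1, Tle3 and Tle4, which encode transcriptional co-repressors, together with Vav-Cre, a recombinase that acts in all blood cells and is therefore not restricted to HSCs. The labels call the other mice control without giving their alleles, and give no age. The control titles carry codes that begin with VavC, and whether these mice carried Vav-Cre is not stated. Both groups were sorted from bone marrow by surface markers: lack of lineage markers and of CD48, with c-Kit, Sca-1 and CD150 present. The study asks what loss of the 3 Tle genes does in these cells. Levels are in FPKM, fragments scaled to transcript length and library size, so that genes can be compared with one another. In such bulk samples fewer cells of a type and less RNA per cell cannot be told apart. The labels do not say that replicates came from separate mice, and the spread behind each p-value may therefore be technical.

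Chaperones bind unfolded proteins and help them reach or keep their native shape. HSP70 proteins (Hspa8 in the cytosol, Hspa5 in the ER, Hspa9 in mitochondria) bind short exposed stretches in a cycle driven by ATP, started by J-domain proteins such as Dnajb1 and reset by nucleotide exchange factors such as Hsph1. HSP90 proteins (Hsp90aa1 and Hsp90ab1 in the cytosol, Hsp90b1 in the ER) act later, on nearly folded clients such as kinases and steroid receptors, and Hspd1 and Hspe1 form the barrel and lid of the mitochondrial chaperonin. Many cytosolic and mitochondrial chaperone genes are induced by the transcription factor HSF1 through heat shock elements, and the ER genes by the unfolded protein response through ER stress response elements. In HSCs, which make protein slowly, protein quality control is known to matter for self-renewal.

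Promoter windows of 300 bases (250 before to 50 after a start site) were given by RefSeq on GRCm38.p6 for 6 of the members. For Hspa8, Hspa9, Hsp90aa1 and Hsp90ab1 none was used. The sites below are shown because heat shock and ER stress elements are how the known stress pathways reach such genes, and 1 of the 2 kinds was found in windows of 5 members. Positions count from the start site as 0, sequences run 5′ to 3′ on the strand of the gene, and capitals mark the letters that matched. The heat shock sites of Hspe1 (chr1:55088053-55088082, + strand) and Hsph1 (chr5:149636351-149636380 and chr5:149636287-149636311, - strand), the ER stress site of Hspa5 (chr2:34772020-34772049, + strand) and the 2 of Hsp90b1 (chr10:86705515-86705664, - strand) read as follows.
Hspe1, -95 to -66: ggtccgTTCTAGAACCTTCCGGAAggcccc
Hsph1, -44 to -15: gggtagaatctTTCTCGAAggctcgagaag
Hsph1, 25 to 49: aatgctgcagaTTCTGGAAAGTTCt
Hspa5, -70 to -41: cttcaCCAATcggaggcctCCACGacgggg
Hsp90b1, -220 to -71: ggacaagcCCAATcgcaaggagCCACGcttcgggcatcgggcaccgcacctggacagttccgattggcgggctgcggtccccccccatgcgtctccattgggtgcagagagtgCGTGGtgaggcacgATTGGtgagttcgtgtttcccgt

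The heat shock element was searched as GAANNTTC or TTCNNGAA, which read the same on both strands. One such pair of units was held by 15.1% of 32851 windows, an alternating run of 3 units by 0.603%, and an alternating run of 4 units by 0.0244% (8 windows). The 4-unit run stands at -89 to -72 of Hspe1. The same DNA lies at -144 to -127 of the inner of 2 Hspd1 start sites, because these genes are transcribed away from each other from starts 216 bases apart. The outer Hspd1 start lies 95 bases inside Hspe1, so the annotated transcripts overlap on opposite strands. Hsph1 held 1 pair at -33 to -26 and a 3-unit run at 36 to 48 of the outer of its 2 start sites, which is the one its sequences above count from. Counted from the inner start, the same sites lie at -54 to -47 and 15 to 27. The window of the outer Hspd1 start held no heat shock element. The ER stress response element was searched as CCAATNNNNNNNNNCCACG on both strands, and was held by 0.119% of the windows (39). Hspa5 held it once, at -65 to -47. Hsp90b1 held it at -212 to -194 and, on the opposite strand, at -107 to -89. The 2 Dnajb1 windows held neither element. A match is a description of the letters only, and runs of 3 or 4 units contain the shorter motif.

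Before the members, the libraries themselves differed. The columns summed to between 599137 and 683822 FPKM, and total reads are unknown. The commonest ratio of low values put the depth of the libraries within 1.46 times of control replicate 1, the shallowest, on the evidence of 8 to 36 genes each. The targeted gene Tle3 went against its label, at 2.48, 4.97 and 5.61 FPKM in the controls against 32.3 and 31.6 in the deficient-labelled pair. Tle4 was at 5.67, 0.0129 and 5.29 against 0.353 and 0.203 FPKM, and Tle1 was at 0.811 to 4.37 FPKM throughout. Directions here therefore rest on the labels. Of 17 HSC and gate genes 14 had negative log2 fold changes, and their summed level was 1273 to 1403 FPKM in controls against 973 and 756 FPKM in deficient-labelled replicates 1 and 2. All 22 tested granulocyte and monocyte markers were positive, with sums of 1046 to 3496 against 12020 and 72570 FPKM. The 12 tested erythroid markers were also all positive (sums of 61.0 to 113 against 214.5 and 524 FPKM), as were 13 of 17 megakaryocyte and platelet markers (936 to 1810 against 9289 and 4449 FPKM) and 11 of 12 macrophage and dendritic cell markers (450.4 to 580 against 677 and 759.5 FPKM). No listed marker in the table was at 0 in all 5 libraries. The table held 22 of 24 listed granulocyte and monocyte and 13 of 20 erythroid markers. It held 17 of 19 megakaryocyte and platelet and 12 of 18 macrophage and dendritic cell markers. Without deficient-labelled replicate 2, 17 of 20 tested granulocyte and monocyte and 6 of 8 erythroid markers were positive. So were 14 of 17 megakaryocyte and platelet and 7 of 11 macrophage and dendritic cell markers. Single genes held much of some sums. S100a8 stood at 222 to 1657 FPKM in controls against 7679 and 37600 FPKM, and Pf4 at 255 to 839 against 7503 and 3023 FPKM. The part of these library differences in the chaperone values was not tested.

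None of the 10 chaperone genes was called between the groups. All 10 reached the minimum mean level of 1 FPKM, and testing was done with limma on log2(FPKM + 1). Calls at an adjusted p under 0.05 numbered 0 of 10, against 0.0189% of all tested genes (2 of 10570), and no member had an unadjusted p under 0.05. The adjusted p ranged from 0.687 to 0.998. The median log2 fold change of the members was -0.072, against -0.10 over all tested genes. It was -0.138, -0.154, -0.196 and -0.074 without control replicate 1, control replicate 2, deficient-labelled replicate 1 and deficient-labelled replicate 2. All tested genes then gave -0.097, -0.12, -0.142 and -0.022. Without control replicate 3 the members gave -0.052 and all tested genes -0.101. The order of the 2 medians thus turned in each of these fits but the last, and depended on single libraries. Negative values were held by 8 of the 10 and by 55.7% of all tested genes. After median-of-ratios scaling, which moved the median of all genes to 0.014, only 4 of the 10 members were negative and their median was 0.055, so no direction for the group holds across scalings. In 2 members, Hspa8 and Hspd1, both deficient-labelled values lay below every control, which 15.9% of tested genes also did. No member lay above every control, as 10.2% of tested genes did. The number of members whose groups did not overlap depended on single libraries: it was 7 without deficient-labelled replicate 1, where 55% of all tested genes did not overlap, and 5 without control replicate 1, where 38.5% did not.

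**Figure D1:**
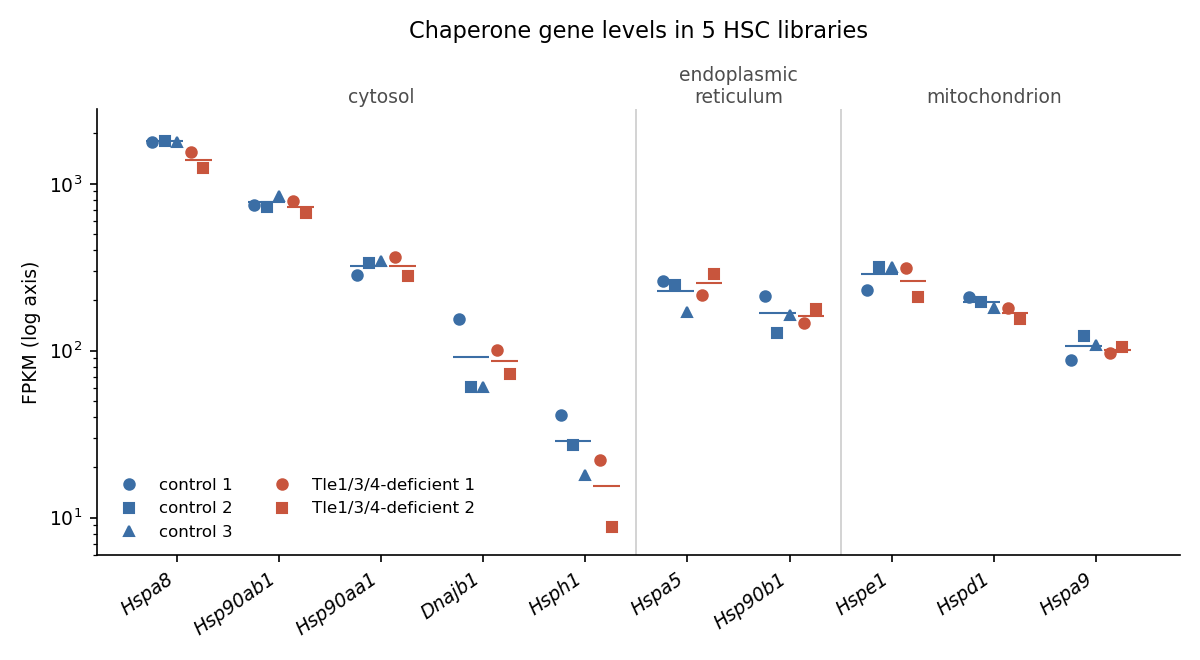
FPKM (log axis) of the 10 chaperone genes in each library, grouped by the compartment of the protein; each point is 1 library (blue control, red deficient-labelled) and short lines are group means. Hspa8 stood highest, from 1242 to 1811 FPKM, and Hsph1 lowest, from 8.84 to 41.5 FPKM.

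Hspa8, the constitutive cytosolic HSP70 that also strips clathrin from vesicles, was the most abundant member. It stood at 1771, 1811 and 1791 FPKM in controls 1 to 3, against 1553 and 1242 in the deficient-labelled pair. The controls were thus almost level, and both deficient-labelled libraries lay below them. The means were 1791 ± 20.1 and 1397 ± 220.2 FPKM (SD, n = 3 and 2). The log2 fold change of -0.37 (SE 0.26, 95% interval -0.96 to 0.23) did not pass (adjusted p = 0.719). It ran from -0.53 to -0.21 over 16 alternative settings, and the groups stayed apart after median-of-ratios scaling (-0.24). In most of these settings the sign could not turn. Filter and eBayes options leave the estimate unchanged, and leaving out a library cannot reverse groups that do not overlap. Hspa8 ranked 38 to 49 among all genes in the controls and 63 and 58 in the deficient-labelled libraries.

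Hsp90ab1, the constitutive cytosolic HSP90, stood at 749.6, 729 and 841 FPKM in the controls, against 787 and 671 in the deficient-labelled pair. The groups overlapped, and Hsp90ab1 varied least of all members, with an SD of 0.121 on the log2(FPKM + 1) scale over the 5 libraries. Its log2 fold change was -0.085 (95% interval -0.65 to 0.48, adjusted p = 0.943), and it was positive (0.043) after median-of-ratios scaling. Hsp90aa1, the stress-inducible isoform, stood at 285, 337 and 345 FPKM in the controls, against 365 and 281 in the deficient-labelled pair. Those 2 values were the highest and the lowest of the 5, and the log2 fold change was -0.0040 (95% interval -0.60 to 0.59, adjusted p = 0.998), or 0.12 after median-of-ratios scaling. The ratio of the inducible to the constitutive isoform within a library does not depend on scaling. It was 0.381, 0.463 and 0.41 in controls and 0.464 and 0.419 in the deficient-labelled libraries. The log2 ratio differed by 0.081, less than the control SD of 0.14 (exact permutation test, two-sided, p = 0.4, where 3 against 2 libraries cannot give less than 0.2). The difference was 0.0080 without deficient-labelled replicate 1, 0.016 without control replicate 1, 0.158 without control replicate 2 and 0.155 without deficient-labelled replicate 2. Adjusted over 5 such ratios and the share of the library given further on (Benjamini-Hochberg), no exact permutation p was below 0.6. Other versions of that share were not in this adjustment.

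Hsph1, an HSP110 protein that exchanges nucleotide on HSP70 and holds unfolded clients, was the lowest and most variable member. It stood at 41.5, 27.3 and 18.0 FPKM in the controls, against 22.3 and 8.84 in the deficient-labelled pair. Deficient-labelled replicate 1 lay within the control range and replicate 2 below it. The log2 fold change of -0.91 (SE 0.56, 95% interval -2.21 to 0.40) was the largest in size among the members and did not pass (adjusted p = 0.687). It was negative in each of 16 alternative settings, though the filter and eBayes options cannot change the estimate. Its size depended on single libraries, being -1.53 without deficient-labelled replicate 1, -0.29 without replicate 2 and -0.62 without control replicate 1. Set against Hspa8, the HSP70 it serves, Hsph1 had log2 ratios of -5.42, -6.05 and -6.63 in controls and -6.12 and -7.13 in the deficient-labelled libraries. These overlapped (exact permutation p = 0.4), and their difference of -0.60 was -0.091 without deficient-labelled replicate 2, -1.10 without replicate 1, -0.29 without control replicate 1 and -0.896 without control replicate 3.

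Dnajb1, the J-domain co-chaperone (HSP40) that delivers clients to HSP70, stood at 154.6, 61.0 and 61.0 FPKM in the controls, against 101 and 72.8 in the deficient-labelled pair. Control replicate 1 was above the other 4 libraries, and the deficient-labelled pair lay between it and the other controls. The group means of 92.2 ± 54.0 and 86.7 ± 19.7 FPKM (SD, n = 3 and 2) thus differed by less than the SD of either group. The log2 fold change was 0.040 (95% interval -1.03 to 1.11, adjusted p = 0.985). It depended on control replicate 1, without which it was 0.48. Without control replicate 2 it was -0.18, as it was without control replicate 3, and it was -0.19 without deficient-labelled replicate 1. Control replicate 1 was the highest library for both Dnajb1 and Hsph1, yet the lowest control for Hsp90aa1.

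The ER pair showed no shared direction. Hspa5 (BiP), the ER HSP70 and sensor-bound regulator of the unfolded protein response, stood at 262, 247 and 170.4 FPKM in the controls, against 217 and 289 in the deficient-labelled pair. Its highest value was in deficient-labelled replicate 2 and its lowest in control replicate 3. The log2 fold change was 0.17 (95% interval -0.53 to 0.86, adjusted p = 0.907), but -0.040 without deficient-labelled replicate 2 and -0.024 without control replicate 3. Hsp90b1 (GRP94), the ER HSP90 that folds integrins and Toll-like receptors, stood at 213, 128 and 165 FPKM in the controls, against 146 and 179 in the deficient-labelled pair. Both deficient-labelled values lay inside the control range, and the log2 fold change was -0.031 (95% interval -0.74 to 0.68, adjusted p = 0.983), or 0.096 after median-of-ratios scaling. The ER pair was also compared within each library. The level of Hsp90b1 was 0.815, 0.516 and 0.966 times that of Hspa5 in controls and 0.673 and 0.618 times in the deficient-labelled libraries (log2 ratio differing by -0.20, exact permutation p = 0.6, but by -0.0080 without control replicate 3 and -0.46 without control replicate 2). The later GENCODE annotation places 1810014B01Rik, an expressed pseudogene, across Hsp90b1 on the opposite strand, and whether strand was used in counting is not given in the sources used here.

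The ER to cytosol balance of the HSP70s was also compared. Relative to Hspa8, Hspa5 stood at 0.148, 0.137 and 0.0952 in controls and at 0.139 and 0.233 in the deficient-labelled libraries. Only deficient-labelled replicate 2 lay above the controls. The log2 ratio was 0.54 higher in the mean of the deficient-labelled libraries, with an exact permutation p of 0.4. It was 0.17 higher without deficient-labelled replicate 2, 0.905 without replicate 1 and 0.34 without control replicate 3. In replicate 2 the granulocyte markers were also highest, and their part in this ratio was not tested.

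**Figure D2:**
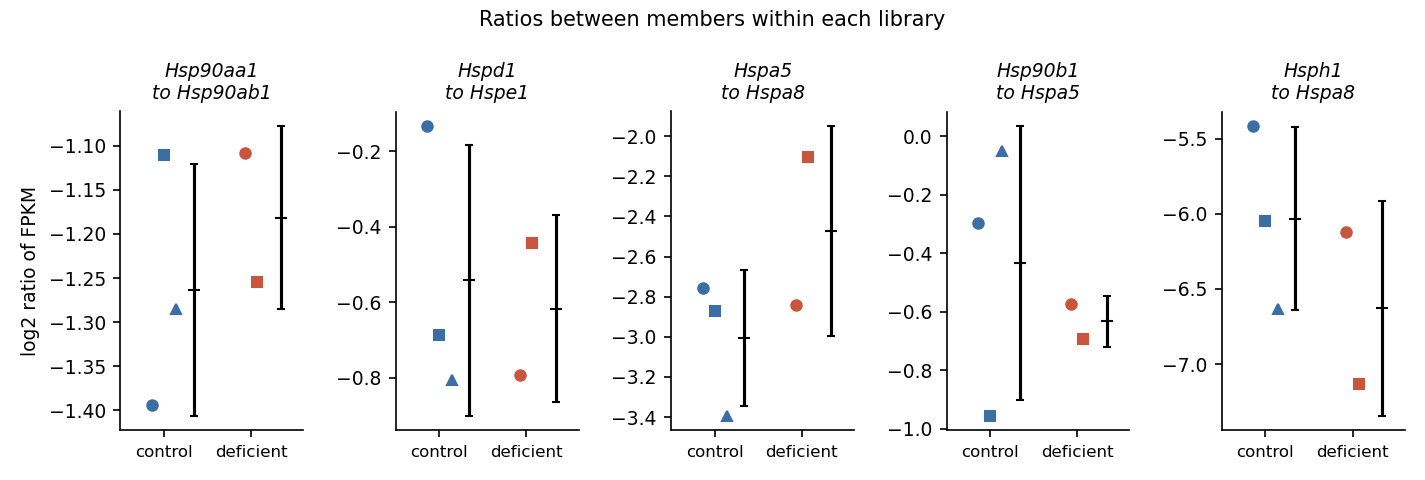
Log2 ratio of the FPKM of 5 pairs of chaperone genes within each library (each panel has its own axis); points are libraries (circle, square and triangle for replicates 1, 2 and 3) and black bars are group means with SD. In each pair the control and deficient-labelled values overlapped, as for Hsp90aa1 to Hsp90ab1 with -1.39 to -1.11 against -1.26 and -1.11.

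The mitochondrial members were likewise not called. Hspd1 (HSP60), the chaperonin barrel, stood at 209, 196 and 181.5 FPKM in the controls, against 181.2 and 155.1 in the deficient-labelled pair. The groups did not overlap, but deficient-labelled replicate 1 lay within 1 FPKM of control replicate 3, and after median-of-ratios scaling they overlapped. The log2 fold change of -0.22 (SE 0.25, 95% interval -0.79 to 0.36) did not pass (adjusted p = 0.825). It ran from -0.33 to -0.092 over 16 alternative settings, most of which could not turn its sign. Hspe1 (HSP10), the chaperonin lid, stood at 229.6, 316 and 317 FPKM in the controls, against 314 and 211 in the deficient-labelled pair. Its low values were in 1 library of each group, and the log2 fold change was -0.14 (95% interval -0.83 to 0.54, adjusted p = 0.919), or 0.14 without deficient-labelled replicate 2. Hspa9 (mortalin), the HSP70 of the mitochondrial import motor, stood at 88.4, 122 and 108 FPKM in the controls, against 96.8 and 105 in the deficient-labelled pair. Both lay inside the control range (log2 fold change -0.059, 95% interval -0.71 to 0.59, adjusted p = 0.966), and the value was 0.068 after median-of-ratios scaling.

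The barrel and lid were also compared within each library. The level of Hspd1 was 0.912, 0.621 and 0.572 times that of Hspe1 in controls and 0.577 and 0.736 times in the deficient-labelled libraries. Control replicate 1 was highest and the groups overlapped (log2 ratio differing by -0.076, exact permutation p = 1.0, and by 0.13 without control replicate 1). RefSeq names 23 pseudogenes after Hspd1, 7 after Hspe1 and 1 after Hspa9. How reads shared with such copies, or lying in the Hspd1 and Hspe1 overlap, were counted is not given, so these 3 levels are uncertain. Copies under other names were not looked for, so the levels of the other members may be uncertain in the same way.

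**Figure D3:**
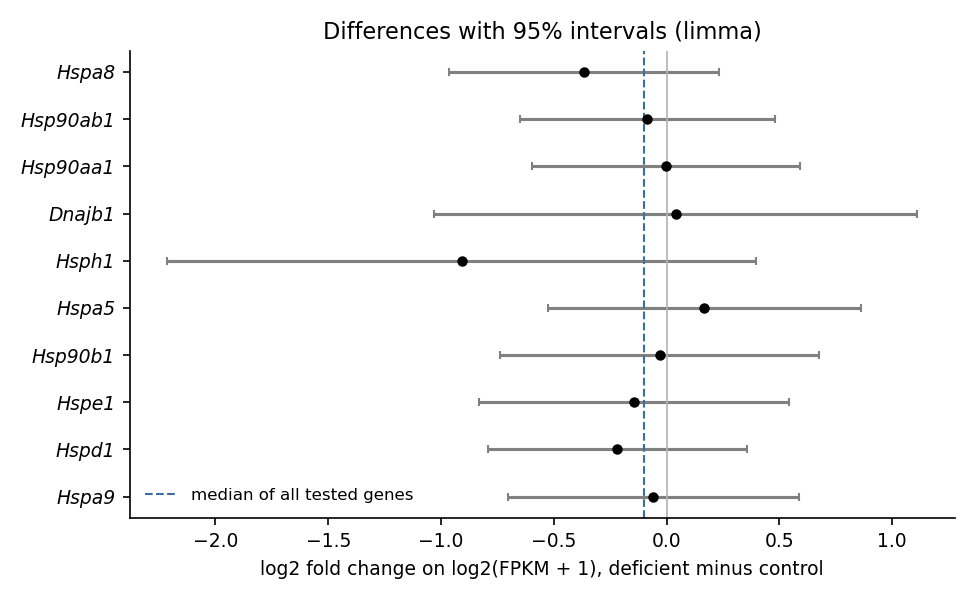
Log2 fold change of each chaperone gene (deficient-labelled minus control, on log2(FPKM + 1)) as points with 95% intervals from limma; the dashed line is the median of all tested genes (-0.10). Every interval includes 0, from the widest for Hsph1 (-2.21 to 0.40) to that for Hsp90ab1 (-0.65 to 0.48).

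An interval that includes 0 does not show that a level was the same. From these intervals the difference for Hsp90ab1 could lie between -0.65 and 0.48 on the log2 scale, and that for Dnajb1 anywhere from -1.03 to 1.11. Within these limits the members varied less, at the median, than all tested genes. Their median SD over the 5 libraries was 0.256 on the log2(FPKM + 1) scale, against 0.670 for all tested genes and 0.392 for the 2118 genes averaging 50 FPKM or more, a level that 9 of the 10 members reached. Hsph1 and Dnajb1 varied most among the members, with SDs of 0.78 and 0.566. Spread was thus lower among abundant genes, and most members lay well above 50 FPKM. The part of level in the low spread of the members was not tested. Deficient-labelled replicate 2 was the lowest library for 6 members (Hspa8, Hsp90aa1, Hsp90ab1, Hspd1, Hspe1 and Hsph1), and control replicate 1 the highest for 4 (Hsp90b1, Hspd1, Hsph1 and Dnajb1). These counts are on FPKM without further scaling, and the same was not counted over all genes. Deficient-labelled replicate 2 also had the smallest column sum (599137 FPKM). Median-of-ratios scaling divided it by the smallest factor, 0.929 against 1.029 to 1.086 in the other libraries.

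Taken as a sum, the members held 0.649%, 0.618% and 0.615% of all FPKM in controls 1 to 3, against 0.553% and 0.537% in the deficient-labelled pair. Both deficient-labelled shares lay below every control, with a mean difference of -0.083 percentage points (0.628 ± 0.019 against 0.545 ± 0.012, SD, n = 3 and 2; exact permutation p = 0.2, the smallest that 3 against 2 libraries can give, and 0.6 when adjusted over the 6 such values tested). Hspa8 accounted for 44.2%, 45.6% and 44.8% of the sum in controls and for 41.1% and 38.6% in the deficient-labelled libraries. Without Hspa8 the shares were 0.362%, 0.337% and 0.339% against 0.326% and 0.329%, again below every control in both, with a mean difference of -0.018 percentage points (exact permutation p = 0.2). A share also falls when other genes take more of a library. After median-of-ratios scaling 6 of the 10 members had positive log2 fold changes and 4 negative, with Hspa8 (-0.24) among the latter. The share without Hspa8 was set against the full column total only. Set against a total without the 50 genes of highest mean FPKM (S100a8 was the first of them and Hspa8 the last, though Hspa8 stayed in the members' sum), the values were 0.846%, 0.837% and 0.8515% against 0.751% and 0.7305%. By compartment, the cytosolic members held 0.461% to 0.487% of controls against 0.414% and 0.38%. The ER members held 0.0515% to 0.0771% against 0.053% and 0.0781%, and the mitochondrial members 0.0855% to 0.0986% against 0.0866% and 0.0786%. Only the cytosolic shares of the 2 groups did not overlap, and these include Hspa8. For Hsp90aa1, Hsp90ab1, Hsph1 and Dnajb1, the other cytosolic members, the FPKM values of the groups overlapped.

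**Figure D4:**
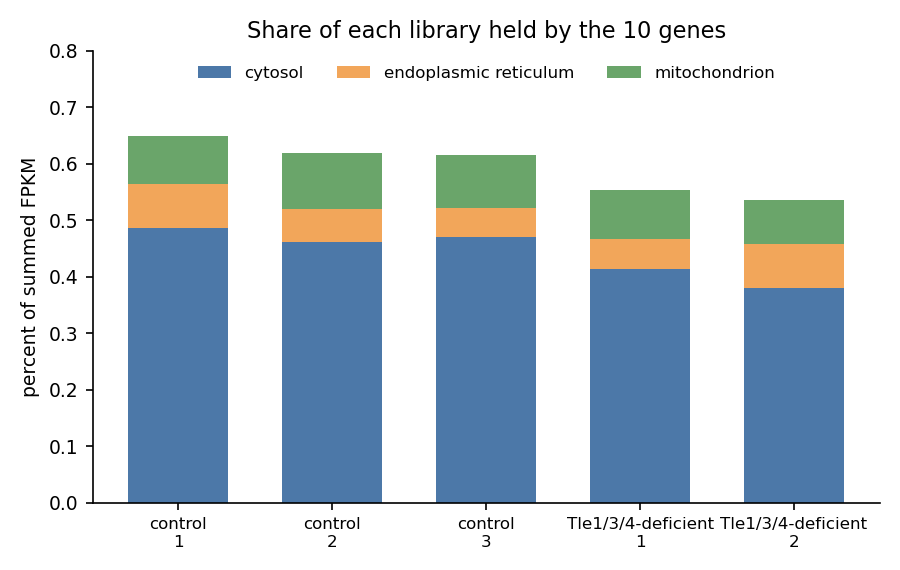
Stacked bars of the percent of each library's summed FPKM held by the 10 chaperone genes, by compartment of the protein. The totals were 0.615% to 0.649% in the 3 controls and 0.553% and 0.537% in the 2 deficient-labelled libraries, and most of each bar is cytosolic.

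Other genes of protein folding were followed in 4 lists, in none of which a gene was called. Of 41 tested cytosolic heat shock and co-chaperone genes, 29 were negative and 12 positive, with a median log2 fold change of -0.22 (25 negative and a median of -0.089 after median-of-ratios scaling). In this list 7 lay below and 3 above every control, where all tested genes gave 15.9% and 10.2%. After that scaling 2 lay below and 4 above, where all tested genes gave 12.5% and 13.6%. The lean to negative values depended on deficient-labelled replicate 2, without which 20 of 38 were negative and the median was -0.072. All tested genes then gave a median of -0.022. Without replicate 1 the list median was -0.32, against -0.142 over all tested genes. Cdc37, which brings kinases to HSP90, stood at 290.4, 266 and 267 FPKM in the controls, against 227 and 103 in the deficient-labelled pair (log2 fold change -0.835, adjusted p = 0.586). Fkbp4, an HSP90 co-chaperone of steroid receptors, stood at 225, 391 and 282 against 241 and 175 FPKM. Ppp5c, a phosphatase of HSP90 complexes, was at 113 ± 14.7 against 80.6 ± 8.50 FPKM, and Cdc37l1 at 32.3 ± 8.54 against 22.6 ± 5.42 FPKM (SD, n = 3 and 2). On the other side, the HSP70 partners Dnaja2, at 60.2 ± 6.56 against 79.55 ± 9.72 FPKM, and Bag1, at 147.5 ± 23.6 against 182 ± 4.54 FPKM, lay above every control, as did Dnajc8. The adjusted p of these 7 genes was 0.586 to 0.834.

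The chaperonin TRiC, which folds actin and tubulin, and prefoldin, which hands clients to it, were evenly divided, with 8 positive and 8 negative of 16 (median -0.0020, or 0.13 after median-of-ratios scaling). With each library left out the median ran from -0.165 without deficient-labelled replicate 1 to 0.198 without replicate 2. Cct5 was at 400.5 ± 62.1 against 399.9 ± 53.5 FPKM and Cct4 at 280.2 ± 62.9 against 225 ± 34.2 FPKM. The groups did not overlap in 2 of the 16 genes, 1 in each direction, where all tested genes gave 10.2% higher and 15.9% lower. These were the prefoldin subunits Pfdn4, at 12.8 ± 0.535 against 21.5 ± 3.79 FPKM, and Pfdn1, at 78.1 ± 15.4 against 56.7 ± 11.9 FPKM (SD, n = 3 and 2). None passed (adjusted p = 0.702 to 0.998).

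Among ER folding and unfolded protein response genes 30 of 47 were positive, with a median of 0.11 (36 positive and a median of 0.24 after median-of-ratios scaling). In this list 7 lay above and 2 below every control, where all tested genes gave 10.2% and 15.9%. After that scaling 10 lay above and 1 below, where all tested genes gave 13.6% and 12.5%. The lean to positive values was smaller without control replicate 2, with 25 of 48 positive. The median was then 0.041, against -0.12 over all tested genes. It was 0.173 without control replicate 1 and 0.056 without deficient-labelled replicate 1, against -0.097 and -0.142 over all tested genes. The abundant disulfide isomerases Pdia3 and P4hb were at 307 ± 52.0 against 309 ± 12.4 FPKM and 237.5 ± 22.8 against 252 ± 15.9 FPKM. Asns, the asparagine synthetase that ATF4 is known to induce, stood at 6.28, 37.7 and 12.3 FPKM in the controls, against 38.1 and 62.2 in the deficient-labelled pair (log2 fold change 1.68, adjusted p = 0.584). Eif2ak3, which encodes the stress sensor PERK, stood at 0.0604, 2.76 and 8.60 against 11.5 and 12.2 FPKM. Syvn1, an ER ubiquitin ligase, was listed at 0 in 1 control (replicate 1), the other libraries holding 12.7 to 22.2 FPKM, and an exact 0 in this table can be a failed estimate. Os9, a lectin that hands misfolded glycoproteins to degradation, stood at 55.0, 72.2 and 50.9 FPKM in the controls, against 34.8 and 24.1 in the deficient-labelled pair (log2 fold change -0.99, adjusted p = 0.505). Dnajb9, an ER J-domain protein, had means of 24.1 ± 2.73 and 15.8 ± 4.92 FPKM (SD, n = 3 and 2) and did not pass (adjusted p = 0.72).

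Mitochondrial chaperone, import motor and protease genes were evenly divided, with 11 positive and 11 negative of 22 (median 0.01, or 0.13 after median-of-ratios scaling). With each library left out the median ran from -0.33 without deficient-labelled replicate 1 to 0.129 without replicate 2. The import motor subunits Dnajc15 and Dnajc19 were at 122 ± 44.3 against 171 ± 69.5 FPKM and 138 ± 25.7 against 106 ± 2.33 FPKM. Clpb, a disaggregase of the intermembrane space, was at 25.5 ± 10.6 against 14.1 ± 1.66 FPKM, and the presequence protease Pitrm1 at 45.15 ± 19.3 against 28.2 ± 3.60 FPKM. Afg3l1, an inner membrane protease, was at 12.55 ± 1.67 against 19.2 ± 6.25 FPKM (SD, n = 3 and 2). Lonp1, the matrix protease, was listed at 0 in control replicates 1 and 3 and at 42.8, 62.5 and 45.7 FPKM in control replicate 2 and the deficient-labelled libraries. None of these passed (adjusted p = 0.559 to 0.768).

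**Figure D5:**
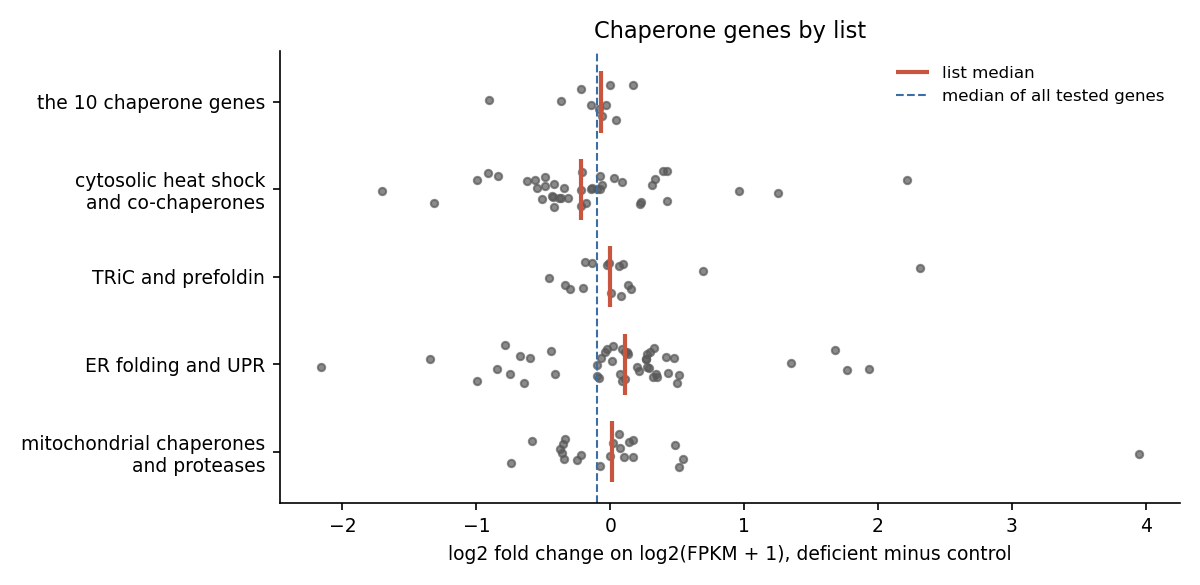
Log2 fold change (deficient-labelled minus control) of each tested gene in the 10 chaperone genes and 4 further lists; each point is a gene, red bars are list medians and the dashed line is the median of all tested genes. List medians ran from -0.22 for cytosolic genes to 0.11 for ER genes.

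The inducible HSP70 genes were chosen after their values were seen. Hspa1a stood at 0, 0.0226 and 1.32 FPKM in the controls, against 0.674 and 21.9 in the deficient-labelled pair. Hspa1b, a near-identical copy with which reads can be shared, stood at 0, 0.0225 and 0 FPKM in the controls, against 2.84 and 1.71 in the deficient-labelled pair. The high Hspa1a value was thus in 1 library. In that library the 24 immediate early genes in the table, which are induced within minutes by many stimuli, summed to 2508 FPKM, against 802 to 1037 FPKM in controls and 766 FPKM in deficient-labelled replicate 1. In the same library Hsph1 was at its lowest (8.84 FPKM) and Dnajb1 was at 72.8 FPKM. The part of the immediate early genes in these values was not tested. Hsf1, which encodes the factor that drives this response, stood at 64.0, 66.4 and 71.1 FPKM in the controls, against 73.2 and 36.5 in the deficient-labelled pair (log2 fold change -0.368, adjusted p = 0.804).

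For the most and the least variable member the genes with the most similar profile were sought, by the root-mean-square difference of centred log2(FPKM + 1) values over the 5 libraries. Hsph1 was closest to Mtrf1l (0.106), AU022252 (0.114) and Atg4b (0.126), and 23 genes lay within 0.2. Hsp90ab1 was closest to Btf3 (0.0513), Zwint (0.0556) and Isg20l2 (0.0556), and 524 genes lay within 0.2. With 5 libraries such likeness is a description of these columns only.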

How the data were processed

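RNA-seq of 5 libraries of sorted HSCs was used, 3 control and 2 labelled Tle1/3/4-deficient, grouped by sample title. Values are FPKM as the authors deposited them, 1 row per gene symbol. The submitters' processing notes list TopHat and edgeR and the build mm9, with no versions or roles. Annotation, filters, strand and the FPKM tool were not found there. limma 3.58.1 (R 4.3.3) compared the groups on log2(FPKM + 1) for the 10570 genes whose mean reached 1 FPKM (no covariate, eBayes trend, two-sided p, Benjamini-Hochberg over all tested genes, threshold 0.05). Fold changes on this scale understate the change of low genes. Ratios and shares were compared with exact permutation tests over libraries. Depth is known only in relative terms, from low values under 0.3 FPKM that matched within 0.5%, so no counting interval is given. The members and lists were chosen with earlier results of these data known. Named were all members, the targeted genes and, of each folding list, genes past the threshold, the 2 with the highest mean and up to 3 per direction with groups apart, 10 FPKM or more in the higher group and the largest change, and the 3 genes most like the most and least variable member. For marker lists, whose 2 highest genes the rule also covers, sums and counts are given instead, with S100a8, Pf4 and Nkg7 named for their large part. Lists of lymphoid, mast cell and stromal markers are in the closing section. Motifs were searched in RefSeq promoter windows of GRCm38.p6, matched by symbol. Overlaps were looked up by symbol in GENCODE M21, a later build than mm9. Alternatives covered pseudocount, filter, scaling, eBayes options, array weights, a replicate block, genes at 0 and leaving out each library. Summaries and plots used Python 3.11.15 (matplotlib 3.10.9, scipy 1.17.1, pandas 2.3.3).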

Additional observations from a re-analysis of the deposited data

How the results depend on the processing

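No member was called in any of the 16 alternative fits or at an adjusted p under 0.1, and the lowest adjusted p of a member was 0.452, for Hspa8 without deficient-labelled replicate 1. Over all genes the calls numbered 2, but 0 with a pseudocount of 0.1 or 0.5 FPKM, without the filter or with array weights, 1 without trend, 4 after median-of-ratios scaling or with genes at 0 left out, 5 with robust eBayes or at an adjusted p under 0.1, and 0 to 5 when each library was left out. With the replicate block there were 22, on 1 residual degree of freedom. Same-numbered libraries deviated from their group means with correlations over genes of 0.035 and 0.0069. With 2 deficient-labelled libraries the deviations mirror each other, so this check cannot decide whether replicates were paired. Of 160 member values 139 kept their sign. Many of these are not separate checks. The filter and eBayes options leave an estimate unchanged, and the replicate block gives the same estimates as leaving out control replicate 3. Signs turned after median-of-ratios scaling for Hspa9 (0.068), Hsp90aa1 (0.12), Hsp90ab1 (0.043) and Hsp90b1 (0.096), and with the block for Hspa5 (-0.024), Hsp90aa1 (0.047) and Dnajb1 (-0.18). With each library left out, log2 fold changes ranged from -0.19 to 0.48 for Dnajb1, -0.19 to 0.18 for Hsp90aa1, -0.20 to 0.030 for Hsp90ab1, -0.22 to 0.15 for Hsp90b1, -0.04 to 0.38 for Hspa5, -0.18 to 0.045 for Hspa9 and -0.43 to 0.14 for Hspe1, and the log2 ratio of Hspd1 to Hspe1 from -0.25 to 0.13. Members whose groups did not overlap numbered 2, but 1 after median-of-ratios scaling and 2 to 7 with each library left out (7 without deficient-labelled replicate 1, 5 without control replicate 1), where fewer libraries make overlap rarer. The share without Hspa8 was added after the data were seen. The cause of the other changes was not tested.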

Other observations

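Markers of cell types not described above were summed in the same way, and no gene of them was called. B, T and NK cell markers (8 tested, 6 positive) summed to 98.7 to 154 FPKM in controls and to 379 and 364 FPKM in deficient-labelled replicates 1 and 2. Mast cell and basophil markers (6 tested, 5 positive) summed to 18.8 to 38.4 against 38.7 and 82.2 FPKM. Stromal and endothelial markers (6 tested, 4 positive) summed to 41.7 to 49.7 against 55.5 and 83.2 FPKM.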
